A study of Mus musculus with 11 samples.

Results

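The cytosolic ribosome is built from ribosomal RNA and a set of proteins named Rpl for the large subunit and Rps for the small subunit. Each protein is made from its own gene, and the products are used in near equal numbers, so their mRNAs are usually transcribed and translated together. Many of these mRNAs begin with a C followed by a run of pyrimidines (a terminal oligopyrimidine, or TOP, start), through which growth signals set how strongly they are translated. In endothelial cells, as in other cells, ribosomal protein mRNA is abundant in growing tissue.

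Genes were taken as members when they were annotated as protein coding and their symbols began with Rpl or Rps followed by a number, or were Rplp0, Rplp1, Rplp2, Rpsa or Rps4x, with the Rps6k kinases left out. The rule found 93 genes among the 55359 genes of the count tables. Of these, 77 were main copies, 8 were paralogs with a close relative among the main copies, 7 were retrocopies (intronless or near copies that arose through reverse transcription), and 1, Rps19bp1, encodes a protein that binds Rps19 and is not itself a part of the ribosome. A minimum on low counts was passed by 89 members, among 17050 genes tested. The 4 that did not pass it were Rpl10l, with 0 to 9 reads a mouse, Rpl27rt, with 0 to 11, and Rps18-ps6 and Rps23rg1, for which no read was counted.

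The samples were retinal endothelial cells of 11 C57BL/6 mice in the oxygen-induced retinopathy (OIR) model, in which a spell of high oxygen stunts the vessels of the pup retina and abnormal vessels grow once normal air is breathed. At postnatal day 12, 5 mice had received 0.5 µL of oncostatin M (OSM, a cytokine of the interleukin 6 family) at 100 ng/µL in the vitreous, and 6 mice the same volume of PBS. CD31+/CD45- cells were taken by sorting at day 17, both retinas of a mouse forming 1 sample, and the study's methods state that PBS was injected into the fellow eye in this model. Neither they nor the labels say whether that held for the sequenced mice, so an OSM sample may hold cells of an eye given OSM and of an eye given PBS. The mice came from 3 litters, each its own OIR run: mice 1 and 2 (OSM) and 3 and 4 (PBS) from litter 1, mice 5 and 6 (OSM) and 7 and 8 (PBS) from litter 2, and mouse 9 (OSM) with mice 10 and 11 (PBS) from litter 3. The labels name no genetic change in either group, and litter and OIR run cannot be told apart.

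Total counts ran from 26697990 to 56033479 a mouse, with the highest in mouse 9. The 8 endothelial markers fixed for the check (Pecam1, Cdh5, Cldn5, Kdr, Tek, Vwf, Erg and Emcn) summed to 9539 to 13909 counts scaled to a common library size (CPM), and the 7 leukocyte markers to 0.230 to 17.6 CPM. Markers of other cells were higher than those of leukocytes. Rod markers summed to 182 to 5202 CPM, mural cell markers to 310 to 1736 and erythroid markers to 117 to 1129. Glial markers summed to 178 to 359 CPM and inner retinal neuron markers to 161 to 223. These are bulk samples, in which a change in the mix of cells and a change in mRNA per cell cannot be told apart.

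The letters around the annotated starts of 11 members are shown because the report turns on these genes or because they carry a clear TOP start. Each window holds 10 bases before the start and 20 from it, on the coding strand, from the RefSeq promoters of assembly GRCm38.p6. Capitals mark a run of C and T that begins with C, has at least 5 bases, and lies between 5 bases before and 15 after the start. A window with no capitals holds no such run.

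Rps27, chr3:90213629-90213658, minus strand: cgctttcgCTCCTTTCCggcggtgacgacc
Rps27rt, chr9:114982720-114982749, minus strand: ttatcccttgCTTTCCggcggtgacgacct
Rps27l, chr9:66946076-66946105, plus strand: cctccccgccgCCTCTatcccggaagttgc
Rps27l, other start, chr9:66946403-66946432, plus strand: gggcttcagggtcactaacgggcctcgcag
Rpl38, chr11:114668570-114668599, plus strand: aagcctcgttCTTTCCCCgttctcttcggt
Rps6, chr4:86857348-86857377, minus strand: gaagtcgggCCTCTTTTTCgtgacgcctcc
Rpl14, chr9:120571507-120571536, plus strand: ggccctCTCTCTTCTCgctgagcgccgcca
Rpl22, chr4:152324426-152324455, plus strand: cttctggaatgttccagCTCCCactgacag
Rpl22, other start, chr4:152325716-152325745, plus strand: cctgggaaaagcaatagctggccgatcgtt
Rpl22l1, chr3:28805498-28805527, plus strand: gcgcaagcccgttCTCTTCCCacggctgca
Rpl37, chr15:5116603-5116632, plus strand: cctgggcggaagcttatccacaggaagtgg
Rpsa, chr9:120127756-120127785, plus strand: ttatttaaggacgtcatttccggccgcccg
Rps3, chr7:99483690-99483719, minus strand: aagggtcgccgcgctgcgcggcgtcattgc

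The main copy Rps27 and its retrocopy Rps27rt shared an unbroken stretch of 19 bases in these windows, while the bases before the start differed. The paralogs Rps27l and Rpl22l1 had starts of their own, with no C at the first base. Rpl37, Rpsa and Rps3 held no run of the kind searched around their annotated starts. Which starts were used in these cells was not measured.

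Promoters were listed for 67 of the 93 members, some with more than 1 start, which gave 79 promoters of 250 bases before to 50 after the start. A C followed by 4 pyrimidines stood exactly at the start in 14 of the 79 (17.7%), against 2.51% of all 32851 promoters in the table. Such a run stood near the start in 49.4% of member promoters, against 24.3% of all. Searched on both strands, CCGGAAG, the core of the sites bound by ETS factors, was in 34.2% of member promoters and 8.86% of all. ATGGCGG, the core of YY1 sites, was in 17.7% and 4.05%, and GGGCGG, the core of Sp1 sites, in 59.5% and 35.7%. The TATA box letters TATAAA were the exception, with 8.86% of member promoters against 13.6% of all. These are counts of letters in a window, and the motifs can overlap one another.

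Levels differed widely between members. On the scale of mean CPM per kilobase of the canonical transcript over the 11 mice, the 75 main copies with at least 100 counts in every mouse ran from 15.2 for Rps15a to 1028 for Rps14, a protein of the platform of the small subunit. The next highest were Rplp0, the base of the stalk that recruits elongation factors, at 575, and Rpl13 at 561. These orders depend on the length used. Rps15a and Rpl37 have canonical transcripts of 5182 and 6111 bases, and per kilobase of coding sequence they stood at 202 and 332 CPM. On the coding scale Rpl41, the smallest ribosomal protein, came first at 1577, ahead of Rps14 at 1382 and Rps3 at 950. By counts, 10 members held 34.5% of all reads of the 93, and 20 members held 53.9%.

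The 5 members lowest per kilobase were Rpl10-ps3 at 1.82, Rpl39l at 1.53, Rps10 at 1.31, Rpl9-ps6 at 0.860 and Rpl24 at 0.547 CPM. Of these, Rps10 and Rpl24 are main copies that encode core proteins of the small and the large subunit. Rpl24 was given 1 to 33 reads a mouse and Rps10 1 to 66. Other annotated genes overlapped 81.5% of the exon bases of Rpl24 and 74.3% of those of Rps10, and counting at standard settings gives no read to a place where genes overlap. Exact copies elsewhere in the genome were found for 85.2% of the 50-base windows of Rpl24 and 54.7% of those of Rps10. Their counts are therefore uncertain as measures of their mRNA.

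The same limit touched the family as a whole, since it has many processed pseudogenes. In 37 of the 89 members, more than 50% of the 50-base windows had an exact copy elsewhere. Among them were Rpl3 (91.6%), Rpl10 (84.3%) and Rpl13 (83.5%). In 11 members, more than 50% of the exon bases lay under another gene. The 323 annotated pseudogenes with Rpl or Rps symbols drew 0.00280% to 0.00522% of counts in a mouse. Pseudogenes under other symbols are not in this share. Reads that map to several places were not counted, so the share does not show how many member reads were lost to such copies.

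The share of all counts that fell on the 93 members parted the litters more than the treatments. In litter 1 it was 1.34% and 1.18% in the OSM mice and 1.28% and 1.10% in the PBS mice. In litter 2 it was 1.68% and 1.76% with OSM and 1.79% and 1.52% with PBS. In litter 3 the OSM mouse had 1.90% and the PBS mice 1.62% and 1.58%. All 4 mice of litter 1 lay below all 7 mice of litters 2 and 3, whereas the ranges of OSM and PBS mice overlapped. Litter 1 averaged 1.23% ± 0.105 (SD, n = 4), litter 2 had a mean of 1.69% ± 0.120 (SD, n = 4), and that of litter 3 was 1.70% ± 0.176 (SD, n = 3). By treatment it was 1.57% ± 0.303 (SD, n = 5) with OSM and 1.48% ± 0.248 (SD, n = 6) with PBS. Within litters 1, 2 and 3 the OSM mean exceeded the PBS mean by 0.0669, 0.0673 and 0.302 percentage points.

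**Figure D1:**
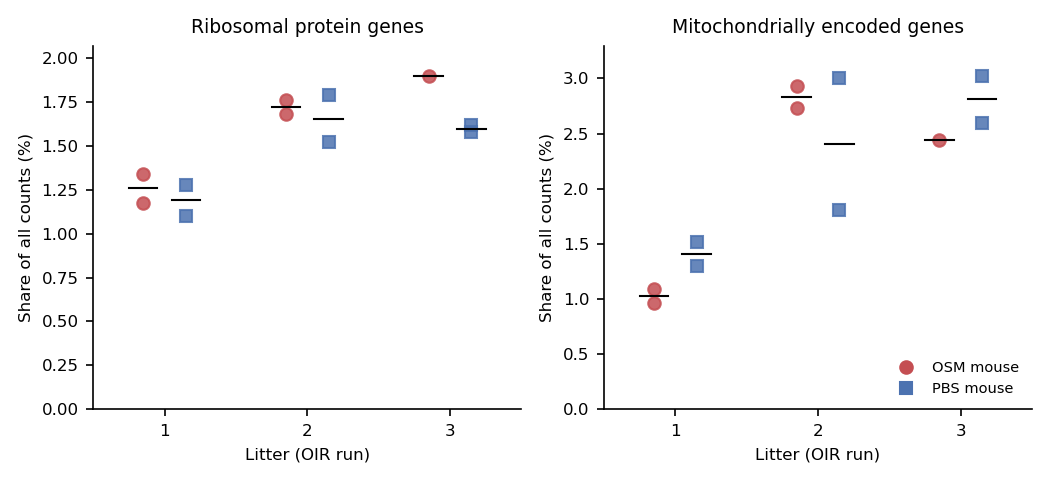
Share of all counts (%) on the 93 ribosomal protein genes (left) and on the mitochondrially encoded genes (right) by litter, with 1 point a mouse and a line at the mean of each treatment within a litter. All 4 mice of litter 1 lie below the other 7 mice in both panels, with ribosomal shares of 1.10% to 1.34% in litter 1 and 1.52% to 1.90% in the others.

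Small and large subunit mRNAs kept a narrow ratio. The counts of small subunit main copies divided by those of large subunit main copies were 0.742 to 0.813 across the 11 mice, with a mean of 0.783 ± 0.0261 (SD, n = 5) in OSM and 0.777 ± 0.0228 (SD, n = 6) in PBS mice.

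Across litters, most members were lower in litter 1. In the fit with treatment as a term, 84 of 89 members (94.4%) were higher in both litter 2 and litter 3 than in litter 1, where 34.6% of all tested genes were. Taken alone, litter 2 was above litter 1 for 86 members (96.6%, against 50.2% of all genes), litter 3 above litter 1 for 86 (96.6%, against 49.7%) and litter 3 above litter 2 for 62 (69.7%, against 48.6%). The median log2 difference from litter 1 was 0.37 for litter 2 and 0.45 for litter 3, while over all genes tested it was 0.0031 and -0.0038. Every mouse of litter 1 was below every other mouse for 37 members (41.6%), against 1.44% of all genes. The edgeR F test of litter had an unadjusted p under 0.05 for 57 members (64.0%), against 10.3% of all genes, and all 57 were higher in both later litters. With Benjamini-Hochberg adjustment it called 0 of 89 members and 0.0176% of all genes, and the DESeq2 likelihood ratio test called 48 of 88 members (54.5%), against 6.88% of all genes. Between litters 3 and 2, 1 member (1.12%), Rpl22, had an unadjusted p under 0.05, against 6.45% of all genes.

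In the pairwise contrast of litter 2 with litter 1, 3 members (3.37%, against 0.246% of all genes) passed the adjusted threshold in edgeR, and Rpsa and Rps3 are described because they were among them. Rpsa, the laminin receptor protein of the small subunit head, showed the widest step between these litters. The gene lies at chromosome 9, 119956755 to 119962787 (GRCm39). Its CPM was 159, 152, 176 and 147 in mice 1 to 4 of litter 1, 289, 308, 361 and 275 in mice 5 to 8, and 318, 269 and 258 in mice 9 to 11. No value of litter 1 came near those of the other litters, and OSM and PBS mice were mixed within each. Rpsa rose by a log2 difference of 0.96 (SE 0.12, adjusted p = 0.0267) in litter 2 over litter 1, and its difference in litter 3 was 0.83 (adjusted p = 0.0565).

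Rps3, a small subunit protein at the entry of the mRNA channel that also takes part in DNA repair, had 550, 528, 553 and 506 CPM in litter 1. It had 761, 833, 811 and 722 CPM in litter 2 and 890, 785 and 681 CPM in litter 3. Again all mice of litter 1 were lowest, and the log2 difference between litters 2 and 1 was 0.55 (SE 0.086, adjusted p = 0.0469). For Rpsa and Rps3 the DESeq2 litter test gave adjusted p-values of 9.27e-13 and 2.10e-09.

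The step between litters was not the same for every member. Among the 77 main copies, the middle 50% of log2 differences ran from 0.29 to 0.51 for litter 2 and from 0.35 to 0.56 for litter 3. At the low end, Rpl37 differed by 0.014 and 0.075, and Rps6, the substrate of S6 kinase, by 0.19 and 0.20. The 5 members that were not higher in both later litters were Rpl10-ps3, Rpl24, Rpl3l, Rpl7l1 and Rps10, all of which except Rpl7l1 had fewer than 100 reads in some mouse.

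**Figure D2:**
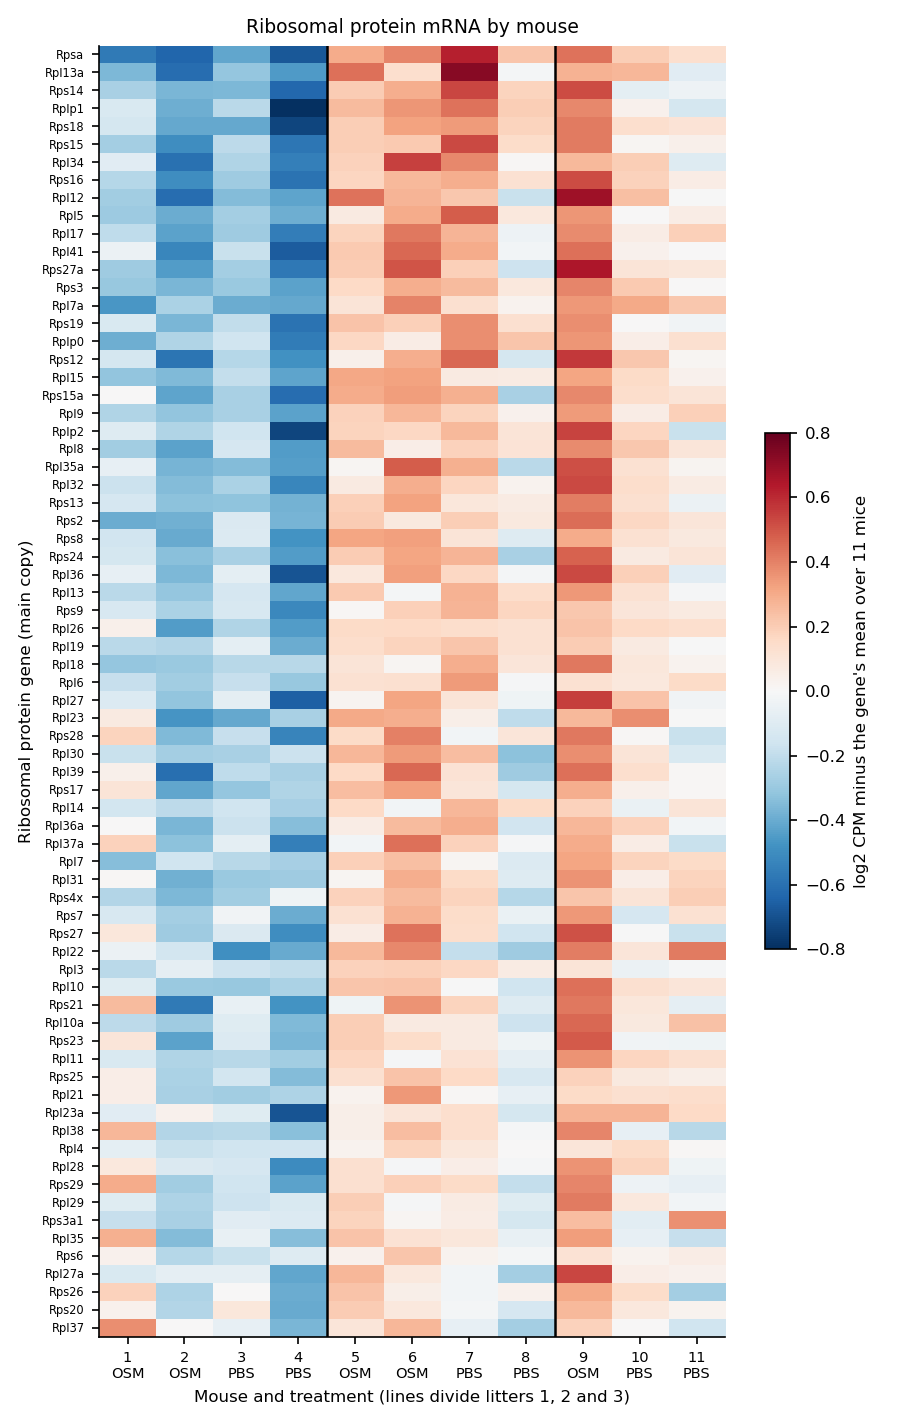
Log2 CPM minus the gene's mean over 11 mice, for 72 of the 75 main copies with at least 100 counts in every mouse (rows, ordered by the log2 difference between litters 2 and 1) and each mouse (columns, with treatment). Litter 1 is mostly blue (low), mouse 9 is the reddest (highest) column, and Rpl37 at the bottom shows little step between litters.

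Other values moved with the litters. Mitochondrially encoded genes took 0.966% to 1.52% of counts in litter 1 and 1.81% to 3.02% in the later litters. The sum of the 12 proliferation genes was 499 to 745 CPM in litter 1, 666 to 916 in litter 2 and 828 to 1049 in litter 3. Of these, 6 had an unadjusted litter p under 0.05 in the edgeR F test, all higher in both later litters. The endothelial markers summed to 12178 to 13909, 9539 to 12049 and 11344 to 12385 CPM. Of the 8, 4 had such a p, all lower in both later litters. The erythroid markers summed to 137 to 416 CPM in litter 1, 544 to 1129 in litter 2 and 117 to 619 in litter 3, and all 5 of them tested had an unadjusted litter p under 0.05. The 9 rod photoreceptor markers were all higher in litter 2 than in litter 1, with a median log2 difference of 2.09, and 1 had such a p. Their sums were 380 to 531, 627 to 5202 and 182 to 1411 CPM in litters 1, 2 and 3. The part of these genes in the litter difference was not tested.

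Genes around the ribosome followed the litters to different degrees. Over all tested genes, 10.3% had an unadjusted litter p under 0.05 in the edgeR F test, and 34.6% were higher in both later litters. Of the 77 tested genes for mitochondrial ribosomal proteins, which are made in the cytosol for the organelle's own ribosomes, 66 were higher in both later litters, and 22 had an unadjusted p under 0.05, all in this direction. Their summed CPM was 3351 to 3741 in litter 1, 4179 to 5167 in litter 2 and 4165 to 4750 in litter 3, with no overlap between litter 1 and the rest. Of 34 translation factors, 13 had an unadjusted p under 0.05, of which 11 were higher in both later litters. Of 16 other mRNAs known for TOP starts, a list that shares genes with the translation factors, 7 had one, all higher. Of 66 ribosome biogenesis genes 11 had one, of which 9 were higher in both, and of 14 genes of the RNA polymerase I machinery 2 had one. Among 9 host genes of small nucleolar RNAs none had one, and among 14 genes of the TOR and Larp1 pathway 1 had one.

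Cytosolic ribosomal proteins whose symbols the rule does not match were also lower in litter 1. Rack1, the scaffold on the small subunit head, had 334 to 386 CPM in litter 1 and 485 to 603 CPM in the other mice. Fau, which yields the small subunit protein eS30, had log2 differences from litter 1 of 0.47 and 0.45.

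Between OSM and PBS mice, the differences were small and leaned upward. With litter as a term, 81 of 89 members (91.0%) had a log2 fold change above 0, against 48.4% of all tested genes, and the median was 0.15, against -0.014 over all genes. An adjusted p under 0.05 in edgeR was reached by 0 of 89 members, as by 0.00% of all genes. For 12 members (13.5%) the unadjusted p was under 0.05, against 4.96% of all genes. All 12 were higher with OSM (2.25% of all genes were in that direction), and none was lower (2.71%). All 12 were main copies, 6 of the large and 6 of the small subunit.

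This count changed when single mice were left out. Without 1 mouse at a time it ran from 2 to 22. It was 2 (2.25%) without OSM mouse 9, against 4.20% of all genes in the same fit, and 3 (3.37%) without PBS mouse 4 or 11, against 4.65% and 4.71%. In these 3 fits the members' share was below that of all genes. It was 5 (5.62%) without OSM mouse 1 or 6, against 4.21% and 4.99%, and 6 (6.74%) without PBS mouse 8 or 10, against 4.94% and 4.75%. It was 19 (21.3%) without PBS mouse 3, against 4.61%, and 22 (24.7%) without OSM mouse 2, against 5.00%. With no litter term it was 1 (1.12%), against 5.70%. The median log2 fold change stayed between 0.11 and 0.20 over the same leave-outs, and 70 to 84 members stayed above 0. OSM mouse 9, with the deepest library, was the highest of all 11 mice for 48 members (53.9%), against 11.1% of all genes.

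**Figure D3:**
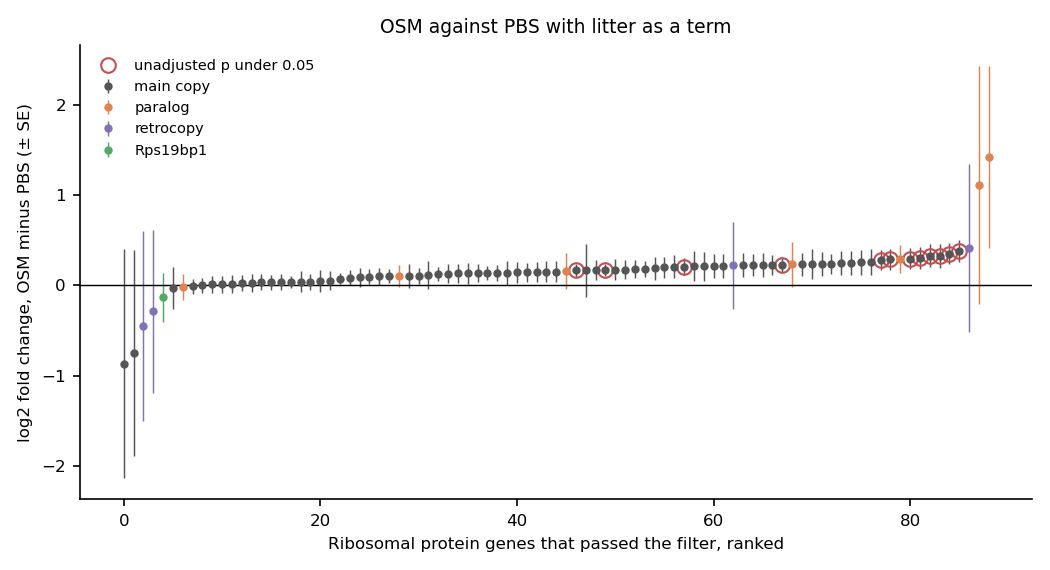
Fitted log2 fold change (OSM minus PBS, ± SE) of the 89 ribosomal protein genes that passed the filter, in rising order and coloured by class, with rings around those with an unadjusted p under 0.05. Most main copies lie between 0 and 0.38, and the wide bars at both ends belong to genes with few reads.

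Rpl22, a large subunit protein that also binds RNA outside the ribosome and is known for its role in T cell development, had the lowest p. It lies at chromosome 4, 152410150 to 152418542 (GRCm39), on the plus strand. Its CPM was 70.9 and 66.0 with OSM against 51.9 and 55.2 with PBS in litter 1, 87.5 and 95.5 against 64.1 and 60.1 in litter 2, and 97.0 against 78.2 and 97.7 in litter 3. In litters 1 and 2 both OSM mice were above both PBS mice, and in litter 3 the OSM mouse lay between the PBS mice. The log2 fold change was 0.38 (SE 0.12, unadjusted p = 0.0082, adjusted p = 0.955 in edgeR). DESeq2 gave 0.37 (SE 0.10, adjusted p = 0.0499), and Rpl22 was the 1 member of 91 it called (1.10%), against 0.757% of all genes. Over all alternatives its adjusted p ran from 0.0499 to 1.

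Rpl37, a zinc-binding protein of the large subunit, was the 1 member (1.12%, against 0.182% of all genes) for which every OSM mouse was above every PBS mouse. It lies at chromosome 15, 5145959 to 5153877 (GRCm39). It had 124, 96.0, 102, 115 and 109 CPM in OSM mice 1, 2, 5, 6 and 9, and 74.3 to 95.7 CPM in PBS mice with a median of 88.5. Mouse 2 exceeded the highest PBS mouse by less than 1 CPM, so the groups only just parted. Its log2 fold change was 0.35 (SE 0.11, unadjusted p = 0.0100, adjusted p = 0.955), and 7.89% of its exon bases lay under another gene.

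Rpl10, near the transfer RNA sites of the large subunit, had 204, 177, 254, 255 and 296 CPM with OSM and 177 to 239 CPM with PBS. The ranges overlapped in litter 1, and the log2 fold change was 0.23 (SE 0.080). Exact copies elsewhere were found for 84.3% of the 50-base windows of Rpl10. Rps27, a zinc-finger protein of the small subunit whose start is printed above, had 166, 128, 163, 211 and 222 CPM with OSM and 111 to 172 CPM with PBS. Its log2 fold change was 0.33 (SE 0.13), with 0.21, 0.26 and 0.59 within litters 1, 2 and 3.

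Among the other genes with an unadjusted p under 0.05 were Rpl27a (0.29), Rps28 (0.33), Rpl38 (0.28), Rps29 (0.30), Rps27a (0.29) and Rps13 (0.21), each with its log2 fold change. Rpl38 is known for its role in the translation of Hox mRNAs, and Rps27a is made as a fusion with ubiquitin. Their adjusted p-values in edgeR were 0.955 and those in DESeq2 0.233 to 0.492. Within litter 3, where OSM is a lone mouse, each was higher by 0.37 to 0.55 on the log2 scale.

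**Figure D4:**
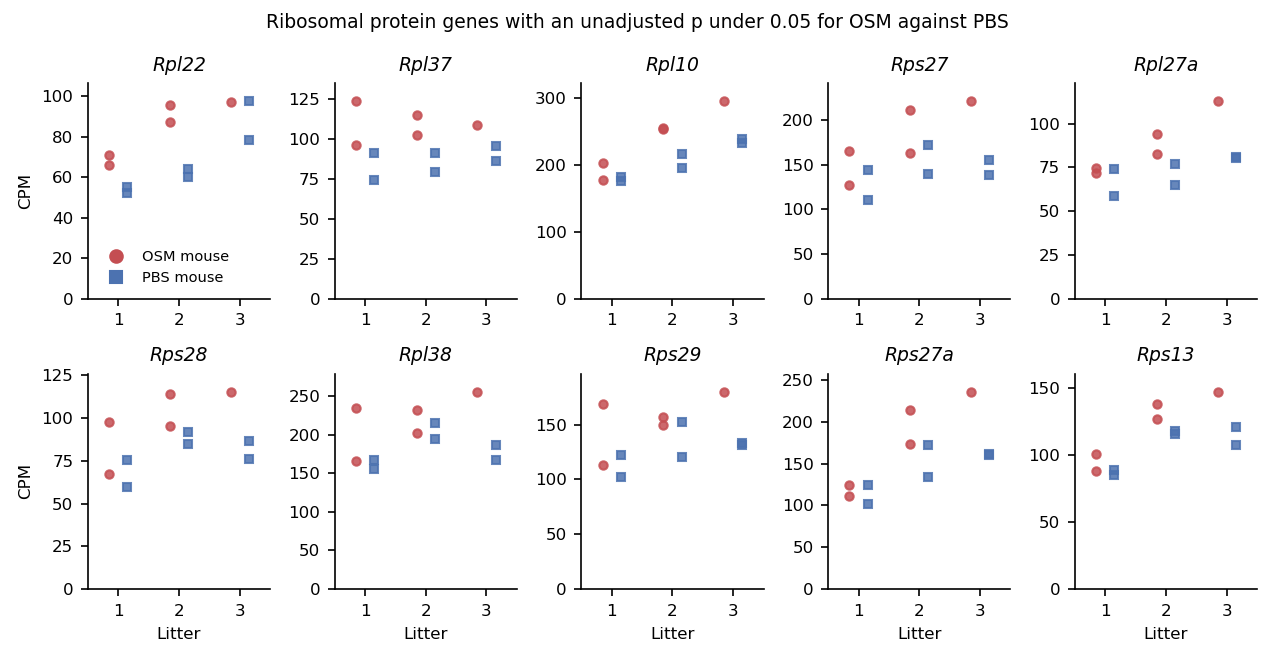
CPM in each mouse by litter for 10 of the 12 ribosomal protein genes with an unadjusted p under 0.05 for OSM against PBS (circles OSM, squares PBS; axes start at 0). OSM points lie above the PBS points of their litter in part only, for example in litters 1 and 2 but not 3 for Rpl22, and most genes step up from litter 1 to the later litters.

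Across litters the lean was uneven. A higher OSM mean in all 3 litters was found for 50 members (56.2%), against 11.3% of all genes, and a lower one for 2 (2.25%, against 11.8%), Rpl10-ps3 and Rps10, both with few reads. The median within-litter log2 difference of members was 0.074, 0.13 and 0.29 for litters 1, 2 and 3, with 64, 68 and 84 members above 0. Of all 17050 genes tested, 8635, 7955 and 7920 were above 0 in these litters. The litter 3 values rest on a single OSM mouse, mouse 9. No interaction of treatment and litter passed adjustment among members (0.00% of all genes did), and 1 member, Rps14, had an unadjusted p under 0.05 (6.42% of all genes). Its differences were 0.18, -0.11 and 0.58.

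By place in the ribosome, values above 0 were found in the large subunit (43 main copies, median 0.15, 40 above 0), the small subunit (31 main copies, median 0.15, 30 above 0) and the stalk proteins Rplp0, Rplp1 and Rplp2 (0.0103 to 0.22). Among main copies, the middle 50% of log2 fold changes ran from 0.085 to 0.22. The 10 members highest per kilobase of transcript had a median of 0.11 and ran from 0.010 to 0.28. Among them were Rps14 at 0.17 (SE 0.12), Rplp0 at 0.010 (SE 0.096), Rpl13 at 0.034 (SE 0.091), Rpl8 at 0.033 (SE 0.086), Rpl38 at 0.28 (SE 0.11) and Rpl41 at 0.23 (SE 0.13). Rpsa, with the widest step between litters 2 and 1, had 0.015 (SE 0.10). The 37 members with more than 50% of windows copied elsewhere had a median of 0.13, and the other 52 had 0.17. By start, the 14 members with a TOP run at the first base had a median of 0.22, and the 51 with promoters listed and no such run had 0.13. Some of the 51 had a run near the start. With such a run counted, 36 members had a median of 0.17 and 29 without it had 0.10. These medians are descriptions of the members and carry no test.

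Members below 0 were few: Rpl24, Rps10, Rpl9-ps6, Rpl10-ps3, Rps19bp1, Rpl13a, Rpl7l1 and Rpl6. Of these, 4 had fewer than 100 reads in some mouse, with standard errors of 0.90 to 1.27. Rps19bp1 had 10.2 to 24.1 CPM with a log2 fold change of -0.13 (SE 0.27), Rpl13a -0.031 (SE 0.24) and Rpl6 -0.013 (SE 0.086). None of the 3 reached an unadjusted p under 0.05.

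Some markers of other cells also differed between OSM and PBS mice, in part unevenly between litters. None passed the adjusted threshold in edgeR. Of 6 erythroid markers (Hba-a1, Hba-a2, Hbb-bs, Hbb-bt and Alas2 among them), 5 were tested, and all 5 were higher with OSM at an unadjusted p under 0.05, with a median log2 fold change of 1.12. Their summed level was 361 to 1129 CPM in OSM mice and 117 to 596 CPM in PBS mice. Of the 12 proliferation genes, 11 were below 0 and 3 had an unadjusted p under 0.05, all lower, with sums of 499 to 828 CPM in OSM and 670 to 1049 CPM in PBS mice. All 8 markers of mural cells (pericytes and smooth muscle) were below 0, with a median of -0.74, and 1 had an unadjusted p under 0.05. Within litter 2, however, 5 of them were higher with OSM. They summed to 410 to 827 CPM with a median of 490 in OSM mice and 310 to 1736 CPM with a median of 924 in PBS mice. The 5 leukocyte markers tested were also below 0 (median -2.05), none with such a p, at sums of 0.287 to 7.31 CPM and 0.230 to 17.6 CPM. Within litter 2 all 5 were higher with OSM. Of the 9 rod markers, 6 were above 0 (median 0.53), none with such a p. Their median differences within litters 1, 2 and 3 were -0.13, 2.27 and -2.06. They summed to 182 to 5202 CPM in OSM mice and 334 to 1411 CPM in PBS mice. Other lists did not share a direction. Above 0 were 2 of 5 glial, 2 of 5 inner retinal neuron, 2 of 3 platelet and 5 of 8 endothelial markers tested. Among these, 1 neuron marker had an unadjusted p under 0.05, and it was lower. The part of these cells in the members' values was not tested. With hemoglobin and mitochondrial genes taken out of the total, the share of counts on members was higher in OSM mice within each litter, by 0.0631, 0.0766 and 0.304 percentage points. Member reads from erythroid or other cells stay in this share, so it does not bear on the part of those cells.

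The wider translation apparatus did not share one direction. Over all tested genes, 2.25% were higher and 2.71% lower with OSM at an unadjusted p under 0.05 in edgeR. The median log2 fold change with OSM was 0.0024 over 34 translation factors, with 1 gene higher and 3 lower at an unadjusted p under 0.05. The lower ones included Eif3c (-0.25, SE 0.074) and Eif3b (-0.29, SE 0.089), core subunits of the initiation factor eIF3, and the higher one was another eIF3 subunit, Eif3e (0.22, SE 0.098). Over 16 other TOP mRNAs the median was 0.0015, and Eif3e, in this list too, was the 1 gene with such a p. Hnrnpa1, a splicing factor, had -0.24 (SE 0.16), and Eef2, the translocation factor, -0.093 (SE 0.072).

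Of 66 ribosome biogenesis genes (median 0.026), 4 were higher and 2 lower at that level. Their lowest p-values belonged to Efl1 (-0.92, SE 0.33), a GTPase that frees new large subunits, Rrp1b (0.62, SE 0.24) and nucleolin, Ncl (-0.27, SE 0.11). Of 14 genes of the RNA polymerase I machinery (median 0.13), only Polr1d (0.30, SE 0.13) had an unadjusted p under 0.05, followed by Polr1h (0.37, SE 0.22) and Taf1c (-0.74, SE 0.61). Of 77 mitochondrial ribosomal protein genes (median 0.044), 3 were higher at that level, Mrps18c (0.46, SE 0.17), Mrpl40 (0.30, SE 0.13) and Mrpl41 (0.34, SE 0.15), and none was lower.

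None of the 9 hosts of small nucleolar RNAs (median 0.17) and none of the 14 genes of the TOR and Larp1 pathway (median -0.034) had an unadjusted p under 0.05. Their lowest p-values were those of Snhg6 (0.47, SE 0.33), Snhg8 (0.53, SE 0.60) and Zfas1 (0.17, SE 0.20), and of Mtor (-0.54, SE 0.29), Tsc2 (-0.40, SE 0.24) and Larp1 (-0.31, SE 0.24), the protein that binds TOP starts. Of the ribosomal proteins outside the rule, Fau had 0.20 (SE 0.14) and Rack1 -0.062 (SE 0.078). None of these lists had a gene past the adjusted threshold in edgeR.

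Spread among mice was small for most members. The SD of log2 CPM over the 11 mice had a median of 0.28 over members, against 0.71 over all genes tested. Once litter and treatment were fitted, the SD of the residuals had a median of 0.14, against 0.57. Small spread was not particular to members. The median SD over mice was 0.22 for translation factors, 0.21 for other TOP mRNAs and 0.27 for endothelial markers. Their residual medians were 0.14, 0.12 and 0.15. It was larger for mitochondrial ribosomal (0.31), ribosome biogenesis (0.36), RNA polymerase I (0.40), TOR and Larp1 (0.48) and small nucleolar RNA host genes (0.64). The steadiest members were Rpl4 (0.13), Rps6 (0.13), Rpl3 (0.15), Rpl14 (0.18) and Rpl29 (0.19). Rpl4, which lines the exit tunnel of the large subunit, ran from 529 to 677 CPM, and Rpl3, at the peptidyl transferase center, from 355 to 469 CPM with a residual SD of 0.044, the smallest of all members. The least steady were Rpl39l (1.72), Rpl3l (1.56), Rps10 (1.36), Rpl24 (1.02) and Rps27rt (0.63), all with fewer than 100 reads in some mouse.

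The paralogs gave a ratio that does not depend on library size. Rps27l, a p53-induced relative of Rps27, was the most abundant paralog against its main copy, with 245 against 304 mean CPM per kilobase of transcript. Rps4l stood at 102 against 182 for Rps4x, and Rpl7l1 at 140 against 313 for Rpl7. Rpl22l1, which can take the place of Rpl22 in the ribosome, stood at 49.2 against 118. Other genes overlapped 47.8% of the exon bases of Rpl22l1, and 59.7% of its 50-base windows had copies elsewhere. For Rpl22 these were 0.0% and 21.0%, so the level of Rpl22l1 is the less certain of the 2. Rpl36al stood at 7.35 against 130 for Rpl36a on this scale, with a canonical transcript of 2188 bases, and at 50.6 against 198 per kilobase of coding sequence.

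The log2 ratio of Rps27l to Rps27 counts was -0.49, -0.47, -0.34, -0.28 and -0.55 in OSM mice 1, 2, 5, 6 and 9. In the PBS mice it ran from -0.36 to 0.020 with a mean of -0.19 ± 0.14 (SD, n = 6), against -0.42 ± 0.11 (SD, n = 5) with OSM. The ratio was lower with OSM in each litter, by differences of -0.25, -0.038 and -0.47, but the ranges overlapped. The litter-weighted difference was -0.23, with p = 0.0185 in the two-sided exact permutation test within litters and 0.0926 adjusted over the 5 pairs tested. With 108 splits the smallest p the test allows is 0.00926. Rps27 itself had a log2 fold change of 0.33 with OSM, and Rps27l was not among the members below 0. The ratio is thus not separate from the value of Rps27, and a lower ratio does not mean less Rps27l.

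For Rpl22l1 to Rpl22 the log2 ratio was -1.33, -1.95, -1.72, -1.49 and -1.33 in the OSM mice and -1.77 to -0.97 in the PBS mice. The litter-weighted difference was -0.24 (exact permutation p = 0.222, adjusted p = 0.386), with opposite signs in litter 3 (0.27) and litters 1 and 2 (-0.47 and -0.35). In the edgeR fit both genes were above 0 with OSM, at log2 fold changes of 0.16 (SE 0.20) for Rpl22l1 and 0.38 (SE 0.12) for Rpl22. The remaining differences were 0.15 for Rpl36al, -0.15 for Rpl7l1 and 0.24 for Rps4l, with adjusted exact permutation p-values of 0.386, 0.491 and 0.491. So 0 of 5 ratios passed the adjusted threshold.

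The paralogs known from muscle and testis had few reads. Rpl3l, the muscle form of Rpl3, had 8 to 564 reads (0.237 to 10.1 CPM), Rpl39l had 0 to 147 reads, and Rpl10l 0 to 9. Per kilobase of transcript Rpl3l stood at 2.61 CPM against 305 for Rpl3, and Rpl39l at 1.53 against 24.8 for Rpl39. These 3 pairs were not tested because a gene of the pair had fewer than 10 reads in some mouse. Rpl3l was above 4 CPM in mice 1, 3, 5, 6 and 9, of both treatments.

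**Figure D5:**
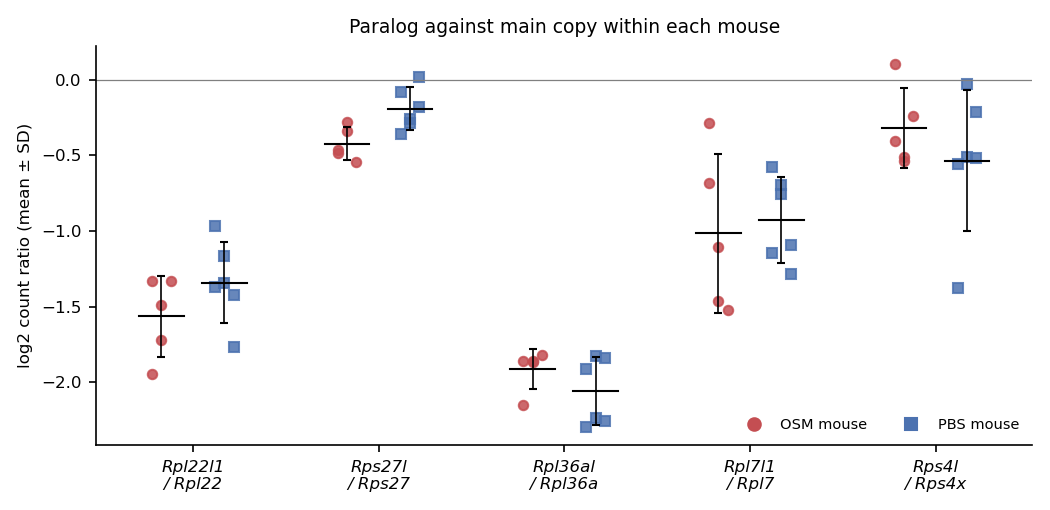
Log2 ratio of paralog to main copy counts in each mouse for the 5 pairs tested, with points set from left to right by litter within each treatment, and the mean ± SD in black. Ranges of OSM and PBS mice overlap in all 5 pairs, and the clearest shift is in the ratio of Rps27l to Rps27, with means of -0.42 and -0.19. A ratio can fall through a higher main copy as well as a lower paralog.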

How the data were processed

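Poly(A)-primed SMARTer cDNA from 500 pg of RNA was amplified, made into Nextera XT libraries without strand marks or molecular identifiers, and read as 50-base single ends. Per the labels and the study's methods, the authors aligned reads with STAR to GRCm39 and deposited raw counts per gene from featureCounts at standard settings with a GENCODE annotation, which counts neither multimapped reads nor reads that touch more than 1 gene. Identifiers were matched to GENCODE vM39 for symbols, gene types, lengths and positions (54749 of 55359 genes matched, 610 did not). The count columns of mice 10 and 11 are headed M11_PBS and M12_PBS, and each was assigned to the mouse its file was deposited for; both are PBS mice of litter 3, so no group depends on it. Total counts were 26697990 to 56033479 a mouse. Error from counting was not measured apart from other error, and relative to the count it is largest for members with few reads.

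Counts were scaled with TMM factors (0.972 to 1.02), filtered with filterByExpr (minimum count 10, 17050 genes), and fitted with litter and treatment in edgeR 4.0.16 (robust quasi-likelihood test, R 4.3.3), with Benjamini-Hochberg adjustment over all genes tested and a threshold of 0.05. The same fit gave the litter tests, and DESeq2 1.42.0 was an alternative. CPM values are TMM-scaled, log2 CPM used a prior count of 2, and shares used raw totals. Levels are per kilobase of the canonical transcript, since exon unions are lengthened by rare transcripts. Paralog ratios used a pseudocount of 0.5 and an exact permutation test within litters over 5 pairs. The mice of a litter share an OIR run, and each mouse was taken as a replicate. The edgeR fit was tested on simulated data, with genes drawn independently and changes larger than the members' medians. That test therefore does not bear on how well changes of the members' size are found. Members and gene lists were chosen with earlier results of these data known. Genes were named by rule: members with an unadjusted p under 0.05, the 5 highest and lowest by level and by spread, paralogs with their main copies, members called by DESeq2 or not passing the filter, Fau and Rack1, and the 3 lowest p-values of each other list. Rpl8, Rps3, Rpsa, Rps14 for the interaction, Rpl41 and members below 0 were named after their values were seen. Some genes that the rule names are not reported here.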

Additional observations from a re-analysis of the deposited data

Results flagged for a closer look

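The log2 ratio of Rpl36al to Rpl36a counts in OSM mouse 1 stood apart from the other 4 OSM mice. It was -2.15, while mice 2, 5, 6 and 9 had -1.86, -1.86, -1.87 and -1.82, and its gap to the nearest was 0.856 of the range of the group. The PBS mice ran from -2.29 to -1.83, so the value lay within their range. In all, 36 groups of values were checked in this way, and chance alone marks about 1 in 20.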

How the results depend on the processing

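No paired analysis was possible because mouse numbers are not shared between groups; litter was a term in the fits instead. No member passed the adjusted threshold for OSM against PBS under 24 of 25 alternatives, and 1 did, Rpl22, in DESeq2 with litter and no filter (log2 fold change 0.37). The count of members with an unadjusted p under 0.05, 12 in the fit reported, was 6 (6.59%, against 5.81% of all genes in that fit) with no filter on low counts, 1 (1.12%, against 5.70%) with no litter term and 2 (2.20%, against 4.65%) in DESeq2 without litter. It was 6 (6.74%, against 4.32%), 3 (3.37%, against 5.85%) and 2 (2.25%, against 3.79%) without litters 1, 2 and 3, and 2 to 22 without 1 mouse. The members' share was thus below that of all genes with no litter term, in DESeq2 without litter, without litter 2 or 3, and without mouse 4, 9 or 11. The median log2 fold change kept its direction throughout. Members called across litters, 0 in the fit reported, were 48 in the DESeq2 likelihood ratio test (54.5%, against 6.88% of all genes), 11 when at least 10 counts were asked of every mouse (13.1%, against 1.05%) and 3 with library totals only (3.37%, against 0.106%; chosen after seeing the data). Without 1 mouse they were 0 to 2, the highest without PBS mouse 8 (2.25%, against 0.263%) and 1 without PBS mouse 7 (1.12%, against 0.0478%). The median level of members, 118 CPM per kilobase of canonical transcript, was 273 per kilobase of coding sequence and 41.9 per kilobase of exon union, and the median SD of 0.28 was 0.14 for residuals, both by construction. Without 1 mouse, the paralog ratios kept their sign and their side of the threshold but not their size. Rps27l ran from -0.26 to -0.15, the latter without OSM mouse 9 (exact permutation p = 0.111), Rpl22l1 from -0.41 (without OSM mouse 9) to -0.12 (without OSM mouse 2), Rpl7l1 from -0.31 (without PBS mouse 3) to -0.043 (without OSM mouse 5), Rps4l from 0.044 (without PBS mouse 4) to 0.38 (without PBS mouse 8) and Rpl36al from 0.094 (without PBS mouse 8) to 0.22 (without PBS mouse 3). The litter-weighted OSM minus PBS difference in the share of counts, 0.126 percentage points over all mice, ran from 0.0671 (without OSM mouse 9, which leaves litter 3 with no OSM value) to 0.172.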
